A study of Mus musculus with 4 samples.

Results

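The genes Hdac1, Hdac2 and Kdm1a, which encode the histone deacetylases HDAC1 and HDAC2 and the histone demethylase LSD1, were examined in a list of places where the chromatin remodeller CHD4 was found in mouse spermatogonial cells. The intervals were chosen by the gene symbol in the peak list. Of the 1849 intervals in the list, 4 were named for these genes, 1 each for Hdac1 and Hdac2 and 2 for Kdm1a, and the 3 genes stand among 1517 genes named. An interval is a stretch of genome called as a peak of CHD4 over IgG, and its summit is the base of highest signal. Since having an interval is what chose these genes, the presence of the intervals, their fold and their rank are described without a test.

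CHD4 binding was mapped by CUT&Tag, in which an antibody brings a transposase to the chromatin around its target so that the DNA there is cut and tagged. The antibody was against CHD4 in 2 samples and, as background, against mouse IgG in 2 others, all from wild-type C57BL/6 mice, with cells labelled spermatogonial taken from digested testes. The sources used here state neither age nor how spermatogonia were enriched, and call the samples biological replicates without naming animals. The deposited list is 1 call of CHD4 against IgG with no value for a single sample, so no spread between samples can be given for any interval. It holds no expression either, so the cell label could not be checked against marker genes.

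CHD4 is the ATPase of the NuRD complex, which joins nucleosome remodelling to histone deacetylation. HDAC1 and HDAC2 are zinc-dependent deacetylases that take acetyl groups off histone tails, which is associated with compact, less transcribed chromatin. They are the catalytic subunits of NuRD and also of the SIN3, CoREST and MiDAC complexes. LSD1 is a flavin-dependent enzyme that removes methyl groups from histone tails, works chiefly with CoREST and can associate with NuRD. The question behind the comparison is whether CHD4 lies at the genes of its own partners.

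The Hdac2 interval is the only 1 of the 4 within 1 kb of the 5′ boundary of its gene in the RefSeq gene table, and its sequence is shown because it lies wholly in the RefSeq promoter window of Hdac2. It covers 204 bases of the plus strand, chr10:36974301-36974504 in mm10, and is given 5′ to 3′ from RefSeq (GRCm38.p6, which has the coordinates of mm10). The capitals mark the only match to the motifs searched.

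Hdac2 interval: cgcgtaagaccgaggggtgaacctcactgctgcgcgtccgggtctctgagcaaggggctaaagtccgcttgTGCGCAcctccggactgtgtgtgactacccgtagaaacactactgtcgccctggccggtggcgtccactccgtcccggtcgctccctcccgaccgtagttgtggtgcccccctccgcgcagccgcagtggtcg

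The summit is base 82 of this sequence, and the interval ends 40 bases before the annotated transcript start. The sequence holds 22 CpG dinucleotides and is 66.7% G and C. Windows at the same place in 32841 promoters of the table had a median of 4 CpG dinucleotides, and 8.18% of them had 22 or more. The match in capitals, TGCGCA, is only a part of the site read by the activator NRF1, and begins 10 bases before the summit. It is the same on both strands and occurs in 4.70% of the same windows. No match was found to the GC box GGGCGG (in 26.7% of windows), CCAAT (29.3%), TATAAA (9.28%), the ETS core CCGGAA (8.65%), the CRE core TGACG (13.8%), the E-box CANNTG (59.7%) or the AP-1 site TGANTCA (5.68%), all searched on both strands. For Kdm1a, the 300 bases around the RefSeq start held 29 CpG dinucleotides, against a median of 7, and 12.9% of windows of that length had 29 or more. This Kdm1a window also held 1 TGCGCA, which 7.76% of windows of that length hold, and 1 CCAAT, which 37.4% hold. The nearest interval ended 3.72 kb from it. The matching 300 bases of Hdac2, longer than its interval, held 36 CpG dinucleotides, 1 TGCGCA and 1 GC box, which 35.7% of such windows hold.

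The 4 intervals lay in different parts of their genes. The Hdac2 summit was 162 bases upstream of the transcript start used by the authors' annotation and 85 bases inside the outermost RefSeq boundary. The Hdac1 interval, at chr4:129528729-129529187, contained a transcript start and was classed by the authors as a promoter within 1 kb. That start belongs to ENSMUST00000125718.7, a transcript 6509 bp long that begins 13.6 kb inside the 26.5 kb RefSeq gene. The Hdac1 summit lay 60 bases upstream of that internal start and 51.2% of the way along the gene. No other interval was closer than 291 kb, so none lay at the 5′ boundary of Hdac1. Internal starts of this kind occurred elsewhere in the list. Of 571 promoter intervals of protein-coding genes, 416, or 72.9%, were assigned to a start within 1 kb of the RefSeq 5′ boundary, and 68, or 11.9%, to a start at least as far inside the gene as that of Hdac1.

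Both Kdm1a intervals were inside the gene, 28.0 kb apart. The first, at chr4:136598368-136598954, was in intron 1 of 18, with its summit 3553 bases downstream of the start of the transcript ENSMUST00000046846.13 and 4.03 kb from the RefSeq 5′ boundary. The second, at chr4:136570044-136570338, was classed as a promoter at 1 to 2 kb. Its summit was 1596 bases upstream of ENSMUST00000155354.7, a transcript that begins 34.2 kb inside the gene, so it lay 62.4% of the way along Kdm1a. Each of the 4 intervals overlapped its own gene and no other gene of the RefSeq table, small RNA genes included. Intervals overlapped 5.25% of protein-coding genes with 1 kb added on both sides, and since the 3 genes were chosen for their intervals nothing is read from that share.

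**Figure D1:**
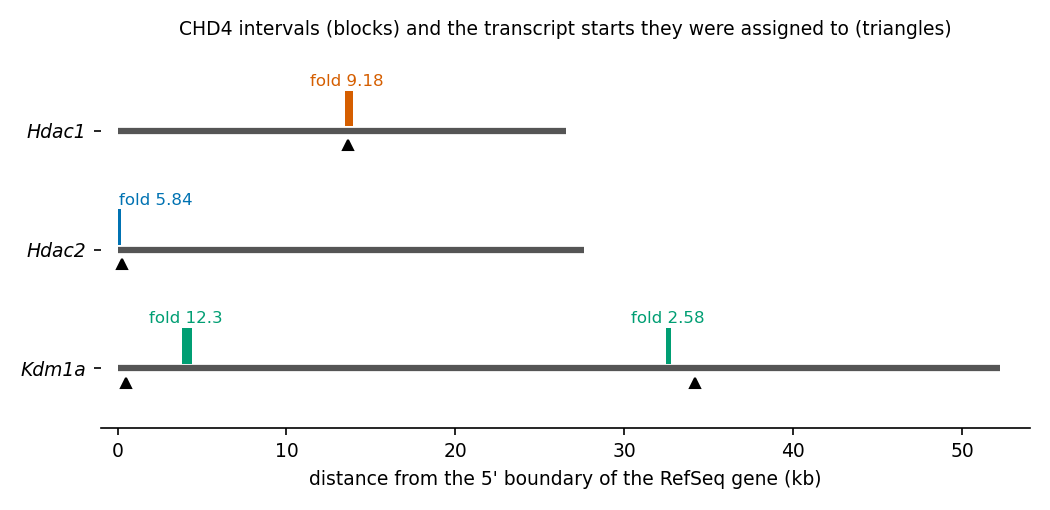
Position of the 4 CHD4 intervals in Hdac1, Hdac2 and Kdm1a, as distance in kb from the 5′ boundary of the RefSeq gene. Grey bars are the genes, coloured blocks the intervals drawn to scale with the authors' fold of CHD4 over IgG, and triangles the transcript starts they were assigned to. The Hdac2 interval sits at the boundary, and the Hdac1 interval and the second Kdm1a interval sit 13.6 and 32.6 kb inside.

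The fold of CHD4 over IgG differed widely among the 4. It is the authors' value, the scaled CHD4 signal plus 1 over the IgG expectation plus 1 at the summit. The fold was 12.3 at Kdm1a intron 1, 9.18 at Hdac1, 5.84 at Hdac2 and 2.58 at the second Kdm1a interval, against a median of 4.76 and quartiles of 4.03 and 5.64 over all intervals. By rank among the 1849 these stood at 2, 28, 400 and 1818. With nothing added to either side of the ratio, the fold was 31.4 at Hdac1 and 23.6 at Kdm1a intron 1, so the order of these 2 turned round. The Hdac1 ratio divides by an IgG expectation of 0.369, close to the lowest in the list, 0.346, so this order rests on a value near the floor. By the authors' fold Kdm1a had 1 interval next to the top of the list and 1 near its end. Arf6, a small GTPase, ranked above Kdm1a intron 1 with a fold of 13.6, and Actn4, an actinin, below it with 12.2. The Hdac1 value was shared with an intronic interval of Epb41l2, and Slc36a3 followed with 9.03. The Hdac2 interval stood between Ptpn2 at 5.85 and Cntnap5b at 5.84, and the second Kdm1a interval between Tsc22d2 at 2.59 and AI839979 at 2.55.

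**Figure D2:**
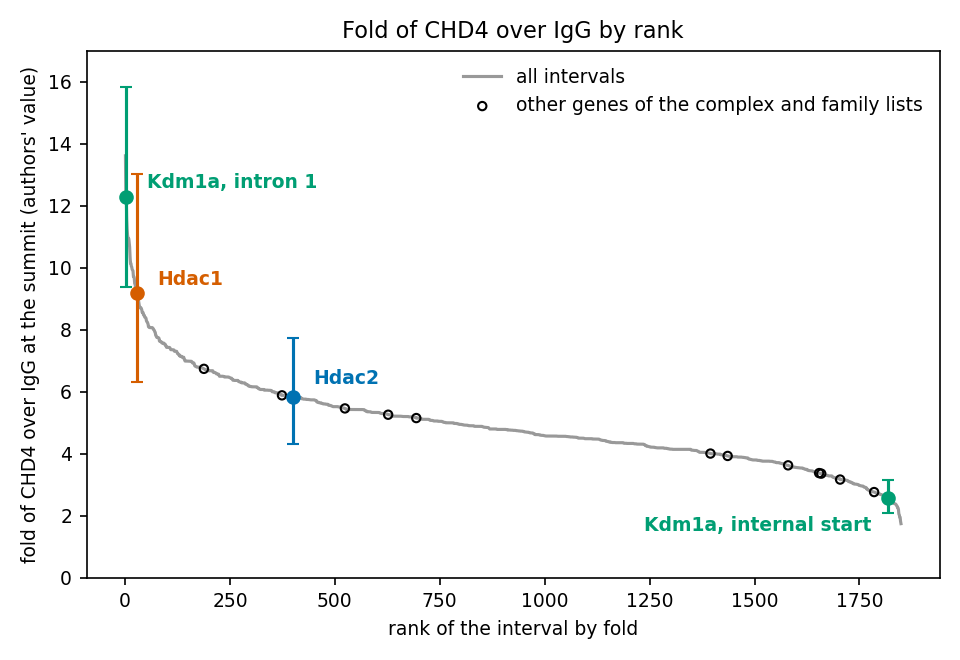
Fold of CHD4 over IgG at the summit, the authors' value, for all 1849 intervals in order of rank (grey line). Coloured points are the 4 intervals of Hdac1, Hdac2 and Kdm1a, with bars for the exact 95% Poisson interval of the CHD4 fragments at a fixed IgG expectation, and open circles are intervals of other genes in the complex and family lists. "Kdm1a, internal start" is the interval 1.44 kb upstream of a transcript start within the gene.

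The numbers of fragments behind these folds ran in another order. They were recovered from the fold and the −log10 p of each summit, and so count fragments at the summit, not over the whole interval. The fragments are given before scaling by 0.429, and the IgG expectation is on the scaled side, so their quotient is not a fold. Scaled, the fragments were 37.7 at the second Kdm1a interval, 23.6 at Kdm1a intron 1, 18.9 at Hdac2 and 11.6 at Hdac1. The second Kdm1a interval had the most, 88 CHD4 fragments over an IgG expectation of 14. Kdm1a intron 1 had 55 over 1, the most among the 270 intervals with an expectation within 0.1 of 1. At so similar an expectation the order by fragments largely follows that by fold, so this restates its rank by fold. Hdac2 had 44 over 2.4, and Hdac1 had 27 over 0.369. Between the Kdm1a intervals the weaker by fold therefore had more CHD4 fragments at its summit. Its IgG expectation was 14-fold higher, the 32nd highest of all 1849. By CHD4 fragments it ranked 56, Kdm1a intron 1 ranked 233, Hdac2 ranked 372 and Hdac1 ranked 903. Hdac1 stood at the median of 27 fragments over all intervals, and its expectation of 0.369 was close to the lowest in the list, 0.346, with 14.3% of intervals at or below it. What gave the IgG signal at the second Kdm1a interval was not tested.

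Counting error leaves wide margins. The exact 95% Poisson interval of the fragments was 17.8 to 39.3 at Hdac1, 32.0 to 59.1 at Hdac2, 41.4 to 71.6 at Kdm1a intron 1 and 70.6 to 108 at the second Kdm1a interval. At a fixed IgG expectation these correspond to folds of 6.30 to 13.03, 4.33 to 7.74, 9.38 to 15.8 and 2.08 to 3.17. The ranges of Hdac1 and Hdac2 overlap, as do those of Hdac1 and Kdm1a intron 1, while that of the second Kdm1a interval lies below the other 3. These ranges cover counting error only, leave out error in the IgG expectation, and say nothing of differences between animals.

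**Figure D3:**
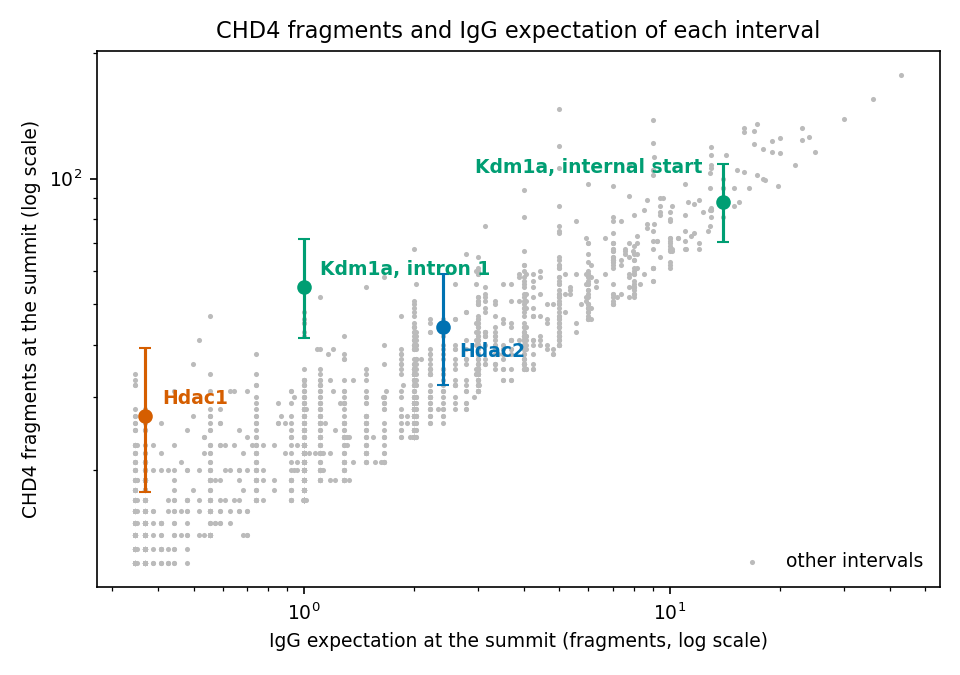
CHD4 fragments at the summit against the IgG expectation there, both recovered from the deposited values and both on log axes, for all intervals (grey). The fragments are before scaling by 0.429 and the expectation is on the scaled side, so their quotient is not a fold. Coloured points are the intervals of Hdac1, Hdac2 and Kdm1a with exact 95% Poisson intervals of the fragments. The second Kdm1a interval lies with the high-IgG intervals at 88 fragments over 14. Kdm1a intron 1, at 55 over 1, has the most fragments of the 270 intervals whose expectation is within 0.1 of 1. That largely restates its rank by fold.

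In significance as the caller gave it, the −log10 q was 18.1 at Kdm1a intron 1, 8.81 at Hdac1, 6.09 at Hdac2 and 2.92 at the second Kdm1a interval. These ranked 8, 75, 248 and 866. The median over all intervals was 2.90, so the second Kdm1a interval was near the middle of the list by q although near the end by fold. In width the intervals were 587, 459, 204 and 295 bp in the same order, against a median of 280 bp. The Hdac2 interval was among the narrow ones, with 86.2% of intervals at least as wide. Each had a single summit, as did 90.2% of the list.

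The flanking genes and the nearest other intervals were looked up for each gene. Over all protein-coding genes the median gap from gene to nearest interval was 373 kb. Gaps from interval to interval, as given below, were not compared with a background, so no sparseness is read from them. Hdac1 is flanked by Marcksl1, a substrate of protein kinase C, 0.123 kb away and by Lck, a tyrosine kinase of T cells, 5.70 kb away. Hdac2 is flanked by Hs3st5, an enzyme that sulphates heparan sulphate, and by Marcks, the relative of Marcksl1, at 140 and 131 kb. Kdm1a overlaps the end of Luzp1, a leucine zipper protein, and is flanked by Tex46 4.30 kb away and Htr1d 106 kb away. None of these flanking genes was named for an interval, as 6.10% of all protein-coding genes were. Luzp1, which overlaps Kdm1a, was not checked for this. The nearest interval to that of Hdac2 was 3283 kb away at Gtf3c6, which encodes a subunit of a transcription factor for RNA polymerase III, with a fold of 4.91. The interval nearest to that of Hdac1 was at Ptp4a2, a phosphatase, 291 kb away with a fold of 4.60. On the outer sides of the Kdm1a pair, Myom3, a muscle sarcomere protein, and Cela3a, a pancreatic protease, had the nearest intervals, at 768 and 798 kb.

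The other genes of the complexes are set beside the share of all genes with an interval. Of 21779 protein-coding genes, 6.10% were named for an interval at any distance and 2.57% for 1 within 1 kb of a transcript start. Among the other 13 NuRD genes none was named, and at a share of 6.10% an absence in so few genes carries little weight. Chd4 itself had no interval closer than 267 kb, and among the other ATPases the nearest lay 41.5 kb from Chd3 and 152 kb from Chd5. The nearest interval lay 19.4 kb from Gatad2a, which bridges CHD4 to the deacetylase core, and 19.8 kb from Mta3, a scaffold subunit, and Mbd2, a reader of methylated DNA, was the farthest at 1020 kb. Over the 13 genes the median gap was 89.4 kb, against 373 kb over all protein-coding genes, which were not matched for local gene density. Without the 3 chosen genes, the median gap was 438 kb for CoREST and LSD1 genes, above that of all genes, and from 125 kb for deacetylases to 180 kb for MiDAC genes in the other lists. Rbbp4, a histone chaperone of NuRD and SIN3, lies on the chromosome of Hdac1, and its nearest interval was that of Hdac1, 193 kb away.

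**Figure D4:**
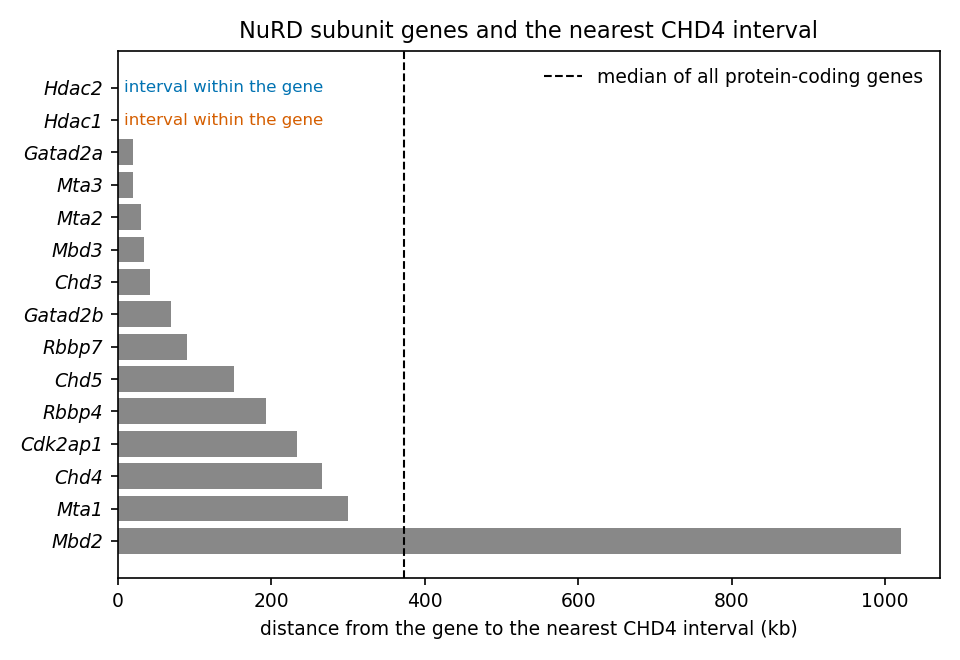
Distance in kb from each of 15 NuRD subunit genes to the nearest CHD4 interval, with 0 where an interval overlaps the gene. Hdac2 and Hdac1, chosen for having an interval, hold 1 each, and the other 13 genes lie 19.4 to 1020 kb away. The dashed line is the median of all protein-coding genes, 373 kb, not matched for local gene density. Of all protein-coding genes 5.25% are overlapped by an interval with 1 kb added on both sides.

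In the partner complexes, the counts leave out the 3 genes that were chosen for having intervals. They stand beside the 6.10% of all protein-coding genes that were named. Of the other 13 CoREST and LSD1 genes 1 was named, and not for a promoter interval. Of the other 15 SIN3 genes 2 were named. Sap30, a core subunit, had an interval over its start with a fold of 3.36, and the scaffold gene Sin3b had 1 of fold 5.89 at 5.16 kb within an intron. None of the other 3 MiDAC genes was named.

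Among the other 16 deacetylase genes 3 were named, beside 6.10% of all protein-coding genes. All 3 are sirtuins, the deacetylases that depend on NAD. None of the other zinc-dependent enzymes was named, but at that share so few genes cannot set the classes apart. Sirt6, which acts in DNA repair, had an interval over its start with a fold of 4.01, and Sirt2, a deacetylase of tubulin, had 1 of 5.46 in an intron. Sirt4, a mitochondrial sirtuin, was named for 2 intervals of fold 3.93 and 3.17, of which the first also overlapped the small nuclear RNA gene Gm24407 and the second lay over Gm13836 and Pxn. Hdac3, the deacetylase of a different corepressor complex, had its nearest interval 87.0 kb away. Among the other 21 demethylase genes 3 were named. Kdm3a and Kdm6b encode enzymes that remove methyl marks linked to silencing. Kdm3a had a promoter interval with a fold of 2.77, Kdm6b had 1 of 3.38 at 2.49 kb, and the Kdm7a interval lay 36.5 kb away over the long non-coding RNA gene Gm38794. Kdm1b, the closest relative of Kdm1a, had no interval within 1203 kb. Of the acetyltransferase genes, which oppose the deacetylases, 2 of 11 were named, Kat2b, a transcriptional coactivator, with a fold of 6.74 at 1.21 kb and Kat8, an enzyme for histone H4, with 5.26 over its start. Taking the 7 lists without the 3 chosen genes, 11 of 90 genes were named (12.2%, against 6.10% of all protein-coding genes), and 4 of 90 within 1 kb of a start (4.44%, against 2.57%). The Hdac1 and Kdm1a intron 1 intervals had higher folds than any interval of these 11 genes, the fold of Hdac2 was below those of Kat2b and Sin3b, and that of the second Kdm1a interval was below every one of them, the lowest being Kdm3a.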

How the data were processed

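CUT&Tag for CHD4 and IgG was analysed from 1 deposited peak list. The submitters' processing notes name MACS2 2.1.2, Bowtie2 2.2.5, Trim Galore 0.5.0 and build mm10. The sources used here do not say how duplicates and replicates were handled. Per the file headers, the authors give a fold (ratio of CHD4 to IgG) and its log2. The authors' −log10 p and −log10 q stand in caller order under damaged headers, and the deposited score is 10 times the −log10 q without decimals. The opening peak became part of the header line and is not analysed here.

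Summits (2066) sharing coordinates were collapsed to 1849 intervals, each taking its summit of highest fold. CHD4 fragments and IgG expectation were solved from fold and −log10 p on the caller's Poisson model. A scale of 0.429 gave whole fragments with 1 solution at all 2066 summits, within 0.0005 on −log10 p. The step was tested on data simulated from the same model at another scale, and recovered 100% of the fragment numbers. The simulated expectations were all below that of the second Kdm1a interval. The test therefore checks the solving of the model, not whether the model holds. Fragment depth per sample is unknown.

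The transcript starts are the authors'. Gene boundaries and promoter sequences came from RefSeq (GRCm38.p6), which had promoter sequences for 2 of the 3 genes. Genes starting before 3 Mb were left out, except on Y. Named genes were the 3 members, list genes with an interval, neighbours by fold, and neighbouring genes and intervals on the chromosome. Kdm1b, Hdac3, Jmjd1c, Rbbp4 and NuRD genes without an interval were named after their values were seen. Some genes under the naming rule are not reported here. Members and lists were chosen with earlier results of these data known. Python 3.11.15, pandas 2.3.3, SciPy 1.17.1 and matplotlib 3.10.9 were used.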

Additional observations from a re-analysis of the deposited data

How the results depend on the processing

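All 4 intervals passed q under 0.01 and 3 passed q under 0.001, and the same number, 4, overlapped the genes with 1 kb added on both sides. With nothing added to either side of the ratio, the fold was 31.4 at Hdac1, 7.86 at Hdac2, 23.6 at Kdm1a intron 1 and 2.69 at the second Kdm1a interval. Hdac1 then lay above Kdm1a, but its IgG expectation of 0.369 was close to the lowest in the list, 0.346. Ranked by CHD4 fragments, Hdac1 stood at 903, Kdm1a intron 1 at 233 and the second Kdm1a interval at 56, which by −log10 q stood at 866, with summits as the unit at 2029 of 2066, and among intervals beyond 1 kb of a start at 1215 of 1218. Within promoter intervals Hdac2 ranked 79 of 631. With Hdac1, Hdac2 and Kdm1a counted in, intervals within 1 kb of a start were named for 2 CoREST and LSD1 genes, Hdac1 and Hdac2 themselves, for 3 deacetylases, of which these are 2, for 1 demethylase and for 1 acetyltransferase. Overlap with the gene and 1 kb on both sides, chosen after seeing the data, counted 10 of the 90 other list genes (11.1%, against 5.25% of all protein-coding genes), Jmjd1c among them and Kdm7a not. No paired analysis was possible because the list holds no value per sample, and leaving out a replicate could not be run. The depth of 12 to 177 fragments at the summit of an interval limits every fold.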
